A study of Mus musculus with 36 samples.

Results

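The pentose phosphate pathway and the cytosolic isocitrate dehydrogenase Idh1 were followed in white fat from the epididymal pad of mice. The 8 genes, G6pdx, Pgls, Pgd, Rpia, Rpe, Tkt, Taldo1 and Idh1, were those of a fixed list whose name is given to a non-control probe of the array, 8 of 27591 gene names in all. They were measured by 12 of 41174 probes. RNA came from 36 adult male C57BL/6J mice that all ate a purified high-fat diet, in which fat supplied 30% of the energy. After 3 weeks of ad libitum adaptation to that diet, 12 mice were killed (t=0 in the labels, t0 here). Another 12 mice stayed on it ad libitum for 12 weeks (HF-AL), and the remaining 12 were fed a restricted amount, 70 energy percent in the labels, for the same 12 weeks, with vitamins and minerals added (HF-DR). There was no low-fat group, so the high-fat diet was common to all 3 groups. Each animal's RNA, labelled with Cy5, was hybridised to 1 two-colour Agilent array against a Cy3 pool of all samples. Values are log2 ratios to that pool, and 1 unit is a doubling.

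The pentose phosphate pathway branches from glycolysis at glucose 6-phosphate. Its oxidative branch, run by G6pdx, Pgls and Pgd, reduces NADP to NADPH and releases ribulose 5-phosphate. Its non-oxidative branch, run by Rpia, Rpe, Tkt and Taldo1, converts pentose phosphates into one another and back into fructose 6-phosphate and glyceraldehyde 3-phosphate. Adipocytes draw on NADPH for fatty acid synthesis, and they also obtain it from malic enzyme and from cytosolic isocitrate dehydrogenase.

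The promoters of the members are shown for reference. All 8 members were higher in HF-DR than in HF-AL, by unequal amounts. A link between promoter and rise was not tested. RefSeq promoter windows on the build GRCm38.p6 were matched for 8 of 8 members, with 10 windows in all since Pgd and Idh1 have a pair each. The 250 bases before the start site are printed 5′ to 3′ on the gene's strand for 5 members, with every motif match in capitals. They are G6pdx (chrX:74428881-74429130, minus strand), Pgd (chr4:149166706-149166955, minus strand), Rpia (chr6:70792176-70792425, minus strand), Tkt (chr14:30548881-30549130, plus strand) and Taldo1 (chr7:141391910-141392159, plus strand).
G6pdx: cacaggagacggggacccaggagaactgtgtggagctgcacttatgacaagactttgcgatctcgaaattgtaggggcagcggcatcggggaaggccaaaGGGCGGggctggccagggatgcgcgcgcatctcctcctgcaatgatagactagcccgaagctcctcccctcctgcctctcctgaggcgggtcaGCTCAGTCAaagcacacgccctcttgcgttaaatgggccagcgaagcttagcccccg
Pgd: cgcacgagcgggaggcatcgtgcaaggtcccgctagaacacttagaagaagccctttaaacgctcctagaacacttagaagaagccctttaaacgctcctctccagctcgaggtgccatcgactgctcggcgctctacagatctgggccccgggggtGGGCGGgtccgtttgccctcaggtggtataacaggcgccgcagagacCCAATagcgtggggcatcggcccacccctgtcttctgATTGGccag
Rpia: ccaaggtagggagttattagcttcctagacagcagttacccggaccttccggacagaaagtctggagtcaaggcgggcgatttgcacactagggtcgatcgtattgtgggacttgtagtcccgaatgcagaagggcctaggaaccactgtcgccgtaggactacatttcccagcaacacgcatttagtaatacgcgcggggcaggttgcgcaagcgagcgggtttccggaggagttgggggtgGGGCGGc
Tkt: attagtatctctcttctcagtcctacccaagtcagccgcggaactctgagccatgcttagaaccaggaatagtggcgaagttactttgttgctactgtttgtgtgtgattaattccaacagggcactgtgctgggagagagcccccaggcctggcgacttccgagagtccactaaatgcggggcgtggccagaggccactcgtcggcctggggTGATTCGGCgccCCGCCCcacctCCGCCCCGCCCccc
Taldo1: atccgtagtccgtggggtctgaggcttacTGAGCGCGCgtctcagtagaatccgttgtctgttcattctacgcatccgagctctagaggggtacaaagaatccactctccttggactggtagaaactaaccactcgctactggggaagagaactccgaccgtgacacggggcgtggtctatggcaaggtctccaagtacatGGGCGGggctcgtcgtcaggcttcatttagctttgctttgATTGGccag

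The windows were searched on both strands for an E-box (CACGTG), a sterol response element (TCACNCCAC) and a loose form of the antioxidant response element (TGANNNNGC). The CCAAT box (CCAAT) and the GC box (GGGCGG) were added after the sequences were seen, so their counts are a description and no test of an excess. None of the 10 windows held the E-box letters, which 6.02% of 32851 mouse windows of this length hold. None held the sterol response element letters, against 1.05% of all windows. The antioxidant response element letters stood in 3 windows, those of G6pdx, Tkt and Taldo1, against 35.2% of all windows. GC box letters stood in 9 of 10 windows, at least 1 for each member, against 32.7% of all windows, and the Tkt window held 3 copies, of which 2 overlap. CCAAT letters stood in 3 windows, of Pgd, Taldo1 and Idh1, against 33.8% of all windows. The Pgd and Taldo1 windows shared their last 11 bases, tgATTGGccag, and no other gene's window ended with them. A match here is a run of letters and not a binding site.

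Per the labels, an animal is a sample, with 12 arrays in each group and none pooled apart from the Cy3 reference. The share of probes with Cy5 well above background ran from 45.2% to 86.6% over the 36 arrays. All 9 mature adipocyte markers were well above background on 36 arrays. HF-DR 8 and HF-DR 9 stood apart by male tract transcripts. Their mean log2 ratios over Svs2, Svs3a, Svs4, Svs5, Svs6 and Pate4 were 5.84 and 5.37. The other 10 HF-DR arrays lay between -5.55 and -0.38. These genes are the 6 tested of 12 listed for seminal vesicle and epididymis. The others, Lcn5, Lcn8, Crisp1, Adam7, Spink8 and Rnase9, did not pass the filter on signal above background and are not in the mean. Results that rest on HF-DR 8 and 9 are given with and without them unless stated. In tissue RNA, fewer cells of a type and less RNA per cell cannot be told apart.

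All 8 members were higher in HF-DR than in HF-AL, and Tkt, Rpia, Pgd and Taldo1 more than doubled. Differences ran from 0.31 for Rpe to 2.50 for Tkt on the log2 scale. The limma fit over 16497 genes called all 8 at a Benjamini-Hochberg adjusted p under 0.05 (two-sided). Much of the transcriptome differed: 64.7% of the genes tested were called in this comparison, and 28.8% were called higher, so a call for a single member is common in itself. Groups without any overlap were rarer, at 6.27% of genes on the higher side, and 5 of the 8 members (Pgls, Pgd, Rpia, Tkt and Taldo1) were among them. By the size of the difference in either direction, 0.339% of all genes exceeded Tkt, 1.19% Rpia, 3.12% Pgd and 3.38% Taldo1. The median over all genes was -0.04. Without HF-DR 8 and 9 all 8 members were still called, and the lowest HF-DR values of G6pdx and Idh1, 0.26 and 0.57, then lay above every HF-AL value.

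**Figure D1:**
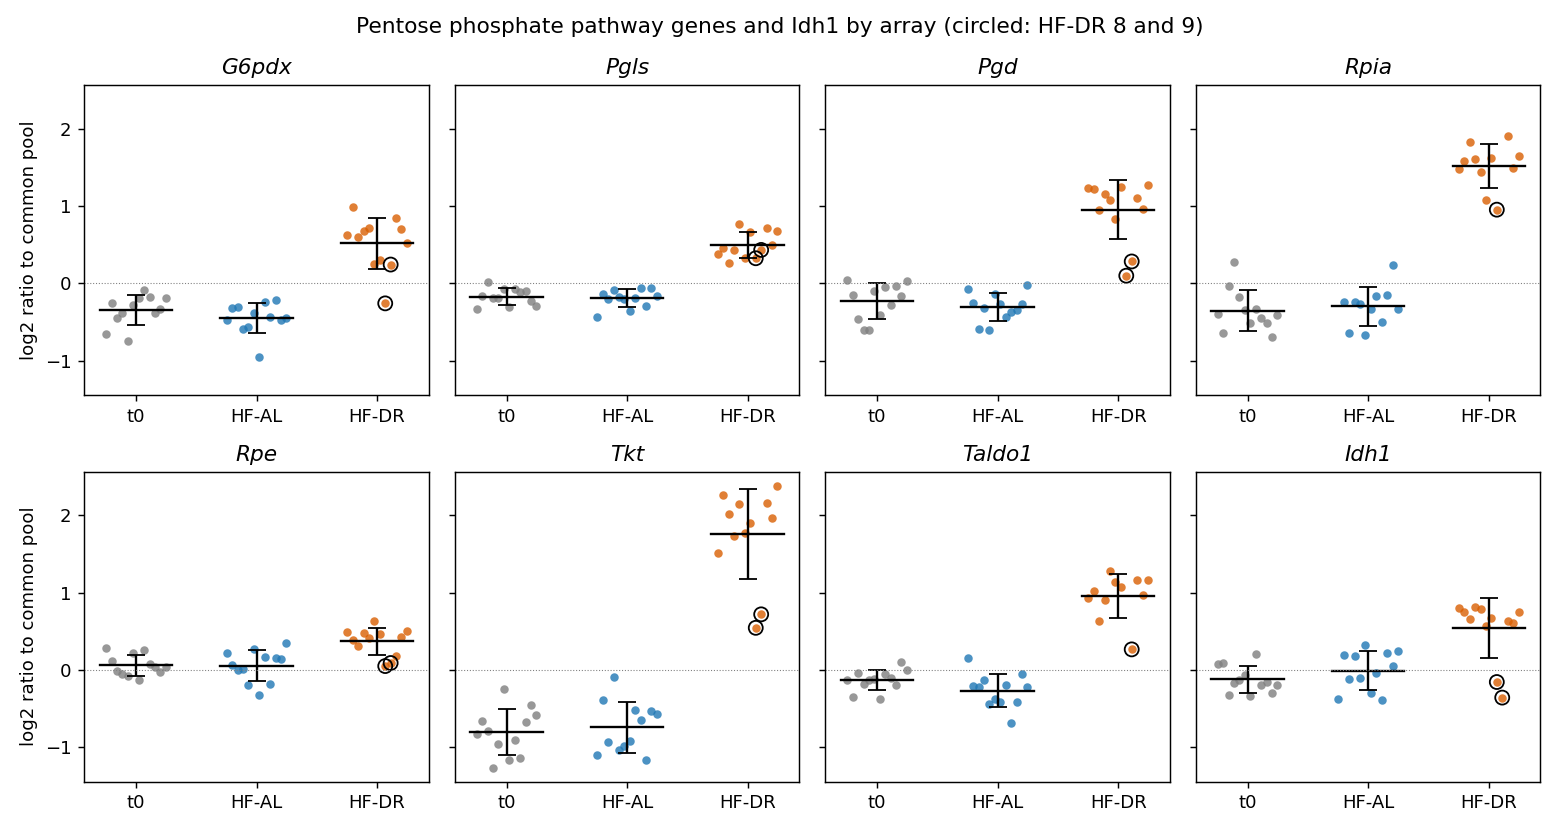
Log2 ratio to the common pool (y axis) of each of the 8 members on 12 arrays per group, 1 point per array, with the group mean as a line and its SD as an error bar. Apart from the circled arrays HF-DR 8 and 9, HF-DR points lie above most or all t0 and HF-AL points in every panel. The circled arrays lie low in most panels, with Tkt at 0.55 and 0.72 against a group median of 1.94, and the Idh1 point of HF-DR 9 lies below every t0 point.

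The first 3 enzymes of the oxidative branch rose together. G6pdx encodes glucose-6-phosphate dehydrogenase, which commits glucose 6-phosphate to the pathway. Its log2 ratio ran from -0.96 through a median of -0.45 to -0.22 in HF-AL and from -0.26 through 0.61 to 0.98 in HF-DR. A single restricted animal, HF-DR 8 at -0.26, lay within the HF-AL range, and the other 11 lay above every HF-AL animal. The difference was 0.97 ± 0.10 (SE), a 1.95-fold rise, with an adjusted p of 1.4e-10 in limma.

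Pgls encodes 6-phosphogluconolactonase, the hydrolase that follows. It ran from -0.43 through -0.18 to -0.05 in HF-AL and from 0.26 through 0.45 to 0.77 in HF-DR. The groups did not overlap, and the difference of 0.69 ± 0.06 had the smallest error of the 8 (adjusted p 4.1e-13 in limma). HF-DR 8 and 9, at 0.32 and 0.43, lay closer to the other restricted animals than for most members.

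Pgd encodes 6-phosphogluconate dehydrogenase, the second NADPH-producing step. It ran from -0.60 through -0.29 to -0.02 in HF-AL and from 0.10 through 1.09 to 1.28 in HF-DR. The groups did not overlap; HF-DR 8 and 9 read 0.10 and 0.28, and the other 10 restricted animals began at 0.84. The difference was 1.26 ± 0.11 (adjusted p 2.7e-12 in limma) and 1.41 without those 2 arrays. A second Pgd probe gave 1.51 ± 0.11, with 10 HF-AL and 11 HF-DR arrays after outlier spots.

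Of the non-oxidative branch, Tkt showed the largest difference of the 8 members and Rpe the smallest, by the brightest probe of each gene. Tkt encodes transketolase, which moves carbon pairs between sugar phosphates. It ran from -1.16 through -0.78 to -0.09 in HF-AL and from 0.55 through 1.94 to 2.38 in HF-DR. All 12 restricted animals lay above all ad libitum animals. The difference was 2.50 ± 0.17, a 5.66-fold rise (adjusted p 1.7e-15 in limma), and 2.73 without HF-DR 8 and 9. A second Tkt probe gave 2.42 ± 0.19. The third was not well above background on any t0 or HF-AL array but was on 10 of 12 HF-DR arrays. Against the lowest signal well above background on each array, its HF-DR level was at least 1.60-fold higher than in HF-AL. That probe was kept through its HF-DR arrays alone, so the bound is no separate support for the rise.

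Rpia encodes ribose-5-phosphate isomerase, which makes the ribose 5-phosphate of nucleotides. With the outlier spots of HF-AL 1 and HF-DR 9 left out (n = 11 and 11), it ran from -0.67 through -0.27 to 0.24 in HF-AL and from 0.95 through 1.59 to 1.90 in HF-DR. The groups were separated by a gap, and the difference was 1.81 ± 0.11, or 3.51-fold (adjusted p 7.0e-16 in limma).

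Taldo1 encodes transaldolase, the partner of transketolase. It ran from -0.68 through -0.22 to 0.16 in HF-AL and from 0.27 through 1.03 to 1.28 in 11 HF-DR animals, the outlier spot of HF-DR 8 being left out. The groups did not overlap, and HF-DR 9 at 0.27 was the lowest restricted animal. The difference was 1.22 ± 0.09 (adjusted p 3.6e-14 in limma), and 1.13 with outlier spots kept.

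Rpe encodes ribulose-5-phosphate epimerase, which makes the xylulose 5-phosphate used by transketolase. It ran from -0.32 through 0.10 to 0.35 in HF-AL and from 0.05 through 0.42 to 0.64 in HF-DR, so the ranges overlapped and 8 of 12 restricted animals lay above all ad libitum animals. The difference was 0.31 ± 0.07 (adjusted p 0.00024 in limma), and 41.9% of all genes differed by more in one direction or the other. Its second, dimmer probe gave 0.56 ± 0.11. Within the slides that held both groups, the Rpe difference was 0.33, 0.25 and -0.04.

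Idh1, the cytosolic enzyme that reduces NADP while oxidising isocitrate, ran from -0.39 through 0.01 to 0.33 in HF-AL and from -0.36 through 0.66 to 0.81 in HF-DR. HF-DR 8 and 9, at -0.15 and -0.36, lay within the HF-AL range, and the other 10 restricted animals lay above it, between 0.57 and 0.81. The difference was 0.55 ± 0.11 (adjusted p 5.4e-05 in limma) with all 12 arrays and 0.71 without these 2. The SD of the HF-DR group was 0.38 with them and 0.09 without.

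The probes lie, on mm8 and per the file headers, on chromosome X at 70662330 to 70662389 for G6pdx, chromosome 8 at 74524134 to 74525048 for Pgls and chromosome 4 at 147993984 to 147994043 for Pgd. Those of Rpia, Rpe, Tkt, Taldo1 and Idh1 start on chromosomes 6, 1, 14, 7 and 1 at 70695280, 66652267, 29402464, 141254185 and 65093737. Exon and UTR annotation of that build was not used here. No member probe was saturated on any array.

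The slides of the arrays held the groups unevenly, so each difference was also read within a slide. On the 3 slides with an HF-DR and an HF-AL array, Tkt differed by 2.59 to 2.80, Rpia by 1.34 to 2.16 and Pgd by 0.97 to 1.58. G6pdx differed by 0.84 to 1.45, Taldo1 by 0.86 to 1.34, Pgls by 0.42 to 0.66 and Idh1 by 0.41 to 0.69. With slide as a block in limma, all 8 members were still called, the largest adjusted p being 0.0092 for Rpe.

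The restricted group was compared with the start of the study too, which shares the HF-DR animals with the comparison above and is no independent repeat of it. All 8 members were called higher in HF-DR than in t0, where 61.8% of genes were called and 28.8% were called higher. The differences were 0.86 ± 0.10 for G6pdx, 0.67 ± 0.06 for Pgls, 1.18 ± 0.11 for Pgd and 1.86 ± 0.11 for Rpia. They were 0.31 ± 0.07 for Rpe, 2.56 ± 0.17 for Tkt, 1.09 ± 0.09 for Taldo1 and 0.67 ± 0.11 for Idh1. The same 5 members as above did not overlap between HF-DR and t0, against 7.54% of all genes on the higher side. On the 6 slides with both groups, every member was higher in HF-DR on every slide.

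After 12 more weeks of ad libitum feeding, no member was called against t0. In that comparison 0.697% of genes, 115 of 16497, were called in limma. Member differences ran from -0.14 for Taldo1 to 0.11 for Idh1, with adjusted p between 0.51 and 0.99, and 0 of 8 had an unadjusted p under 0.05. For Tkt the HF-AL mean was -0.74 ± 0.33 and the t0 mean -0.80 ± 0.30 (SD, n = 12 each). The 95% interval of that difference, -0.27 to 0.40, was the widest of the 8, and the interval for Pgls, -0.14 to 0.09, was the narrowest. A missed threshold does not show that the levels were equal.

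**Figure D2:**
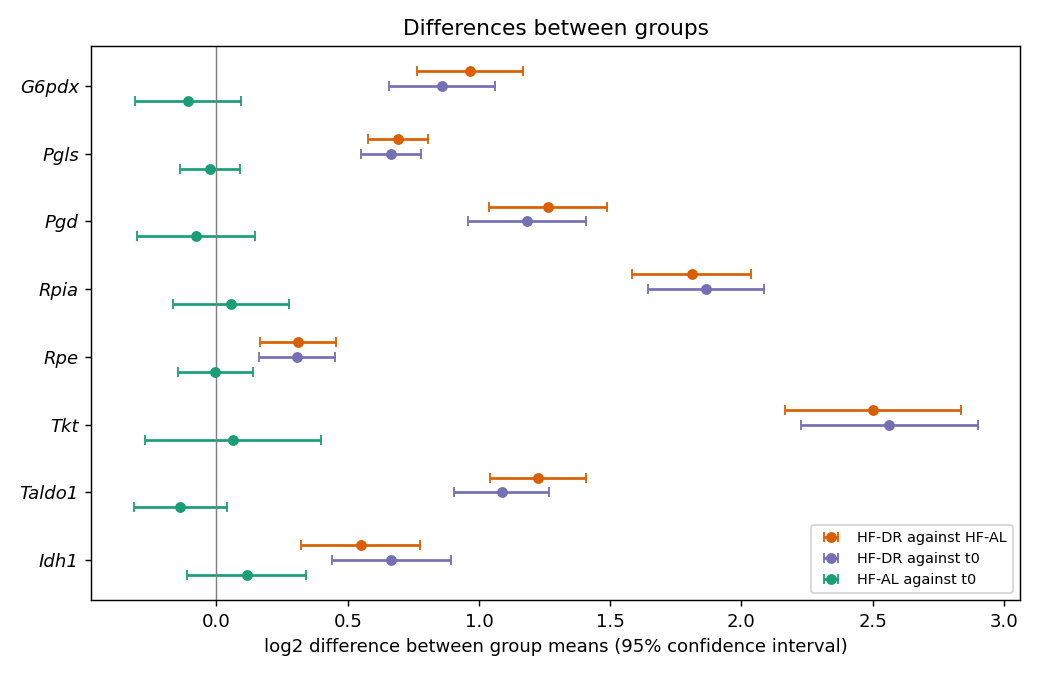
Log2 difference between group means (x axis) of each member, with its 95% confidence interval from limma, for HF-DR against HF-AL, HF-DR against t0 and HF-AL against t0. The restricted group's differences run from 0.31 to 2.56 and their intervals lie above 0, while the HF-AL against t0 intervals all include 0.

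The members did not rise by the same amount. For each of the 28 pairs, the difference of their log2 ratios within an animal was compared between HF-DR and HF-AL in a two-sided permutation test (100000 resamples), with Benjamini-Hochberg adjustment over the 28 pairs. In 25 pairs the adjusted p was under 0.05. Tkt rose more than each other member, by 0.75 ± 0.15 over Rpia (adjusted p 0.000193, permutation test) and by 2.19 ± 0.18 over Rpe, where p was 1e-05, the smallest the permutation test can give.

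Rpia in turn rose more than every member except Tkt, by 0.47 ± 0.11 over Pgd and 0.53 ± 0.13 over Taldo1 (adjusted p 0.000742 and 0.000486, permutation test). The pairs that missed the threshold were Pgd and Taldo1 (0.11 ± 0.09), G6pdx and Taldo1 (-0.19 ± 0.12), and Pgls and Idh1 (0.14 ± 0.13). Their adjusted p was 0.218, 0.148 and 0.286 in the permutation test, which does not show equal rises. Within the oxidative branch, Pgd rose more than G6pdx, the difference G6pdx minus Pgd being -0.29 ± 0.11 (adjusted p 0.0175, permutation test), and G6pdx rose more than Pgls by 0.28 ± 0.11 (adjusted p 0.0233). The members of 1 animal share an array, and these differences compare changes, not levels, between genes. Each gene was read by its brightest probe. The second probes of Rpe and Pgd gave larger differences between HF-DR and HF-AL than the probes used here. Whether the smaller gaps between members hold with those probes was not tested.

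Animals of a group were then compared with one another. Of 84 correlations between members (28 pairs in each of 3 groups, 100000 resamples), 0 passed after Benjamini-Hochberg adjustment, and 23 had an unadjusted permutation p under 0.05. The median Pearson r was 0.12 in t0, 0.21 in HF-AL and 0.68 in HF-DR. The HF-DR value rests on the 2 arrays that stand apart: without HF-DR 8 and 9 the median r was 0.17. The number of HF-DR pairs with an unadjusted p under 0.05 was 16 with them and 4 without. Of these 4, over 10 animals, 2 were negative: Rpia and Rpe gave r = -0.85 (rho -0.50, unadjusted permutation p 0.00501 and 0.143) and G6pdx and Rpe r = -0.66 (rho -0.70, permutation p 0.0362 and 0.0306). The positive ones were Pgls and Taldo1 with r = 0.78 (rho 0.79, permutation p 0.00586 and 0.00911) and Pgd and Idh1 with r = 0.68 (rho 0.55, permutation p 0.0349 and 0.104). Adjusted over all 84 correlations, those of t0 and HF-AL included, the permutation p of r was 0.164 to 0.326 for these 4 pairs. That of rho was 0.383 to 0.766. Without the 2 animals farthest from the median of the first gene, r was -0.50, -0.49, 0.65 and 0.45 in this order. In t0, Rpe and Idh1 gave r = 0.82 and rho 0.70 (unadjusted permutation p 0.00132 and 0.0147, adjusted 0.0554 and 0.309) over 12 animals, and r = 0.66 without the 2 farthest.

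**Figure D3:**
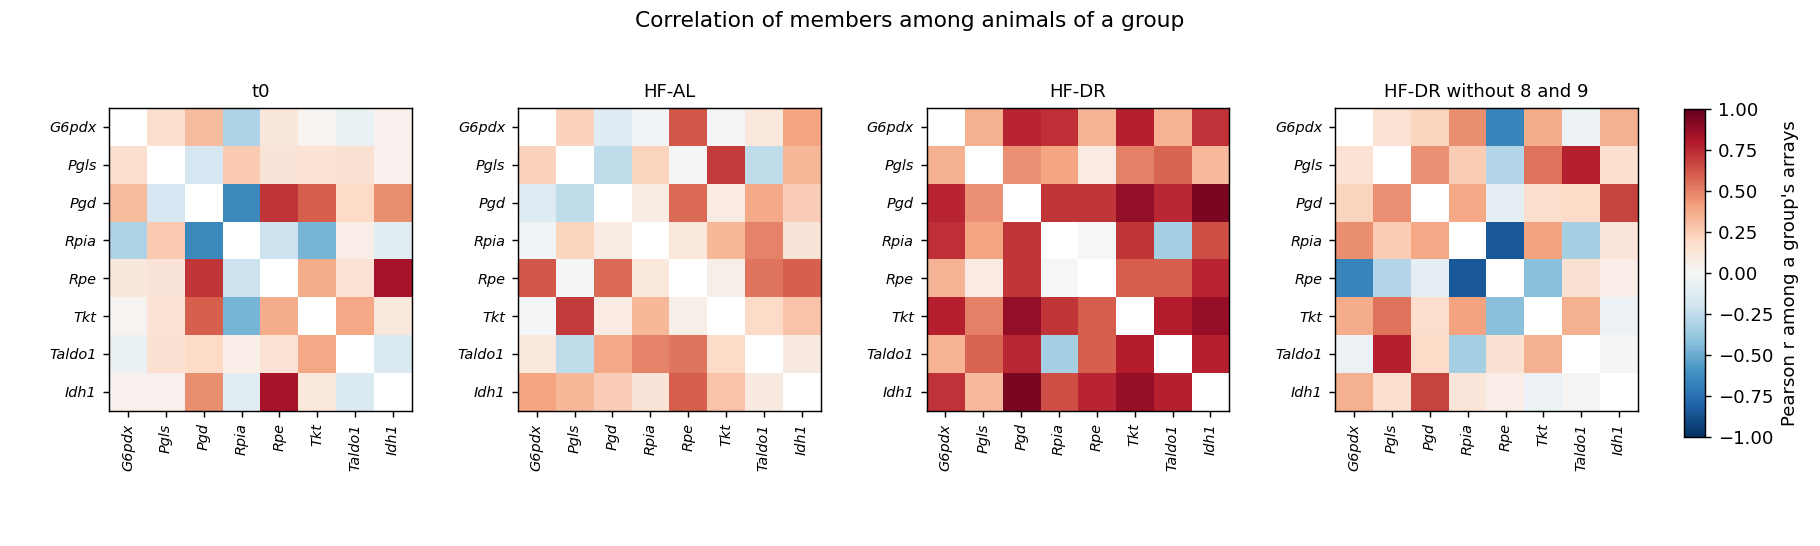
Pearson r between each pair of members among the animals of 1 group, as colour from -1 to 1, for t0, HF-AL, HF-DR (12 arrays each, 11 or 10 where outlier spots are left out) and HF-DR without arrays 8 and 9. The HF-DR panel is mostly positive with a median of 0.68, and the panel without those arrays has a median of 0.17.

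HF-DR 8 had the lowest HF-DR value for 5 of the 7 members measured on it and lay in the lowest pair for all 7. HF-DR 9 had the lowest value for 2 of 7 and lay in the lowest pair for 6. HF-DR 7, whose mean of male tract transcripts was -0.38, the next highest, was never in the lowest pair. The part of male tract RNA in the low values of HF-DR 8 and 9 was not tested.

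The genes whose levels followed a member most closely were ranked by Pearson r of deviations from group means over the 36 arrays, which share 1 reference pool and 1 normalisation. G6pdx was followed by Acot9 (0.86), S100a10 (0.84) and Styx (0.83), and Pgd by Ndufs4 (0.87), Gbe1 (0.86) and Coq7 (0.86). Tkt was followed by Cyc1 (0.87), the citrate carrier Slc25a1 (0.87) and the glycerol-3-phosphate dehydrogenase Gpd1 (0.86). Taldo1 was followed by the pyruvate carboxylase Pcx (0.87), Chchd2 (0.82) and Cpt2 (0.82), and Idh1 by Sucla2 (0.88), Rnf141 (0.87) and Kank2 (0.87). Over the 34 arrays without HF-DR 8 and 9, these values lay between 0.65 for Rnf141 and 0.81 for Pcx. Likeness among animals of a group went with either direction between groups: HF-DR minus HF-AL was 2.81 for Slc25a1, 1.66 for Gpd1 and 1.60 for the glycogen branching enzyme Gbe1, but -0.42 for Acot9, a mitochondrial acyl-CoA thioesterase, and -0.46 for S100a10. Between members the highest r was 0.71, for Pgd and Idh1, and it was 0.37 without those arrays. Rpe and Idh1 gave 0.69 with them and 0.60, the highest, without.

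Other genes of the oxidative branch split. H6pd, which carries out the first oxidative steps inside the endoplasmic reticulum, fell in HF-DR. It ran from -0.49 to 0.09 in HF-AL and from -1.71 to -0.74 in HF-DR (from -1.25 without HF-DR 8 and 9), and the groups did not overlap, as for 8.18% of all genes on the lower side, where 35.9% were called. The difference was -0.89 ± 0.09 (adjusted p 9.5e-11 in limma), against rises in its cytosolic counterparts. G6pd2, an intronless copy of G6pdx, read 0.96 ± 0.10 higher in HF-DR (adjusted p 2.1e-10). Its deviations from group means followed those of G6pdx with r = 0.68 over 36 arrays. This r was not computed without HF-DR 8 and 9. The lowest G6pd2 value in HF-DR was -0.14 with those arrays and 0.40 without them. Whether the G6pd2 probe also reads G6pdx was not tested, so the G6pd2 values are uncertain. Of the oxidative list, 4 of 5 genes were called higher, G6pd2 included, and 1 lower, beside 28.8% and 35.9% of all genes. Of the non-oxidative list 4 of the 4 genes tested were higher. Apart from G6pd2, all these higher genes are members described above. Tktl1 and Tktl2, relatives of transketolase, did not pass the filter, each of their probes being well above background on at most 2 arrays of any group.

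Among 14 other NADPH-related genes tested of 15 listed, Idh1 included, 9 were higher and 3 lower in HF-DR than in HF-AL, with a median of 0.36 against -0.04 over all genes, of which 28.8% were higher and 35.9% lower. Me1, the cytosolic malic enzyme, exceeded every pentose phosphate member with a difference of 2.95 ± 0.15, and ran from -1.58 to -0.77 in HF-AL and from 0.91 (1.22 without HF-DR 8 and 9) to 2.35 in HF-DR (adjusted p 3.1e-18 in limma). The mitochondrial malic enzyme Me2 was 0.64 ± 0.06 higher and Nadk, which phosphorylates NAD to NADP, 0.43 ± 0.06 higher. Idh2, the mitochondrial counterpart of Idh1, went the other way by -0.47 ± 0.07 (adjusted p 3.9e-07). The lists were chosen with results of these data known, so their direction is not independent evidence.

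Genes of fatty acid, sterol and sphingolipid synthesis, listed as NADPH users though not all of them consume it, were mostly higher. Of 16 tested, 14 were higher and 2 lower, beside 28.8% and 35.9% of all genes. The list's median of 1.53 was near that of the non-oxidative branch, 1.52. Cyp51, a sterol demethylase, was 3.29 ± 0.14 higher (adjusted p 4.4e-21 in limma), the squalene epoxidase Sqle 2.74 ± 0.13 and the sterol reductase Tm7sf2 2.19 ± 0.10 higher. Kdsr, a reductase of sphingolipid synthesis, was lower by -0.42 ± 0.07.

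Of 15 genes tested on the redox defence list of NADPH users, 5 were higher and 4 lower, with a median of -0.07. Those shares are not far from the 28.8% and 35.9% of all genes. The counts were 7 and 3 with a median of 0.05 in the deposited log2 table, and 3 and 5 without the 10 arrays with specks. The carbonyl reductase Cbr1 was 1.03 ± 0.08 higher (adjusted p 1.1e-13 in limma). Cybb and Cyba, subunits of the phagocyte NADPH oxidase, were lower by -0.72 ± 0.10 and -0.57 ± 0.09 (adjusted p 2.0e-07 and 5.1e-07 in limma). They count among the lower genes of this list, though that oxidase is not an antioxidant enzyme. Macrophage markers were lower beside them: 8 of 9 were called lower in HF-DR, and the list's mean log2 ratio ran from -1.25 to -0.30 in HF-DR and from -0.20 to 0.34 in HF-AL. Without HF-DR 8 and 9 the HF-DR range was -0.71 to -0.30, 8 of 9 markers were still called lower, and Cybb and Cyba differed by -0.65 ± 0.10 and -0.45 ± 0.06. Their part in the Cybb and Cyba values was not tested.

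Genes that supply or draw on sugar phosphates numbered 10 higher and 5 lower of 22 tested, beside 28.8% and 35.9% of all genes, with a median of 0.15. Dera, the deoxyribose-phosphate aldolase, was 0.86 ± 0.06 higher and the sugar phosphate mutase Pgm3 1.26 ± 0.09 higher. Prps1, which turns ribose 5-phosphate into phosphoribosyl pyrophosphate, was lower by -1.08 ± 0.08 (adjusted p 2.2e-14 in limma), and its HF-DR range of -1.32 (-0.90 without HF-DR 8 and 9) to -0.54 lay below the HF-AL range of -0.06 to 0.52. Tigar, a phosphatase that can divert glucose carbon to the pathway, differed by 0.05 ± 0.09 and was not called (adjusted p 0.60).

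Of 12 regulators, 5 were higher and 4 lower, beside 28.8% and 35.9% of all genes, with a median of 0.12. The counts were 6 and 1 in the deposited log2 table, and 6 and 2 with a median of 0.22 for the mean of all probes of a gene. Mlxipl, which encodes the carbohydrate response factor ChREBP, was 1.88 ± 0.12 higher, and its partner Mlx was 1.86 ± 0.09 higher. Insig1, which retains the sterol regulatory proteins in the endoplasmic reticulum and is one of their targets, was 3.11 ± 0.17 higher (adjusted p 1.1e-17 in limma). Mlxip, a relative of Mlxipl, was lower by -0.24 ± 0.06. Without HF-DR 8 and 9, redox defence counted 6 higher and 4 lower and the sugar phosphate list 11 and 5, and the other counts were as given; the median of the regulators was then 0.01. In HF-AL against t0, 0 genes of any of these 7 lists were called.

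**Figure D4:**
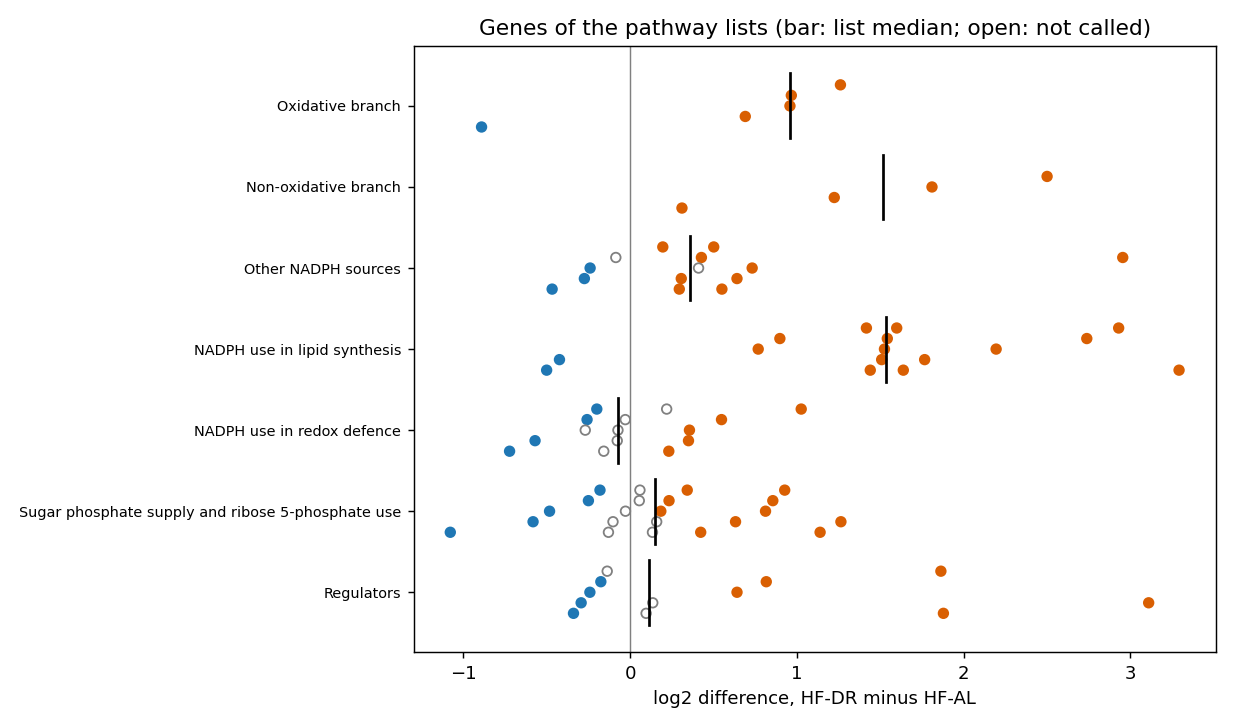
Log2 difference of HF-DR minus HF-AL (x axis) for each tested gene of the 7 pathway lists, 1 point per gene, filled where called in limma (orange higher, blue lower) and open where not, with the list's median as a bar. The medians run from -0.07 for redox defence to 1.53 for lipid synthesis.

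Markers of cell types moved between HF-DR and HF-AL as well. In this comparison 28.8% of all genes were called higher and 35.9% lower. Of the mature adipocyte markers 5 of 9 were called lower and none higher, and the list's mean log2 ratio ran from -1.18 to 0.06 in HF-DR and from -0.09 to 0.51 in HF-AL. The low end was HF-DR 8 and 9: the other 10 HF-DR arrays lay between -0.18 and 0.06, and without these 2 the fit called 5 markers lower and 2 higher. Preadipocyte and fibroblast markers were lower for 7 of 8 (from -1.38 to -0.56 in HF-DR and 0.07 to 0.36 in HF-AL), and mesothelial markers for 4 of 6 (from -0.97 to -0.25 and -0.88 to 0.56). Red blood cell markers were higher for 4 of 4 (from -0.58 to 1.41 and -1.21 to 0.37), and neutrophil markers for 2 of 3 tested of 6 (from -0.03 to 0.89 and -0.90 to -0.18). Of the male tract markers 4 of 6 tested, out of 12 listed, were called higher (from -5.55 to 5.84 and -5.77 to -4.23). Without HF-DR 8 and 9 the fit called 5036 of 16497 genes higher and 6334 lower. In it, 2 of 6 male tract markers were called higher (from -5.55 to -0.38). Lower were 3 of 6 mesothelial markers (from -0.97 to -0.25). Both counts lie not far from the shares of all genes, given lists of 6. Of red cell markers 3 of 4 were higher (from -0.58 to 1.41), and of neutrophil markers 2 of 3 (from 0.14 to 0.89). Of fibroblast markers 7 of 8 were lower (from -0.89 to -0.56). The part of these cell types in the rise of the 8 members was not tested.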

How the data were processed

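Total RNA of 36 mice, 500 ng each, was labelled with Cy5 and hybridised against a Cy3 pool of all samples, in 1 dye orientation, so a gene-specific dye bias is common to all groups and cancels between them. Spot intensities (mean signal, median local background, processed signals) were deposited as scanner files, which per the file headers were written by Agilent Feature Extraction 9.5.3.1. The authors also deposited a table of log2 values, with processing not given in the sources used here. Its columns followed the log2 Cy5 intensity of the matching array (r at least 0.989) and not the ratio, with column medians of 9.26 to 9.29, and it was used as an alternative only.

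From these files, control spots were left out, spots with a net signal below -50 were set aside before normexp background correction (offset 50), and each array was normalised by loess (4 iterations, control weight 0). Outlier spots were dropped, so some members have fewer than 12 values in a group. Probes entered the fit when Cy5 was well above background on 9 or more of the 12 arrays in any group, and the brightest probe stood for a gene. The probes used for the 8 members were so on all 36 arrays. Group means were fitted over all 36 arrays in limma 3.58.1 (R 4.3.3), with two-sided tests and Benjamini-Hochberg adjustment over 16497 genes and a threshold of 0.05. Fits and permutation tests (Python 3.11.15, scipy 1.17.1) were tested on simulated data. Arrays have no read depth; their number limits the precision.

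Gene names came from the files and were updated through RefSeq tables (24375 probes by accession, 6301 by current symbol, 54 by another accession, 2386 by synonym); 8058 kept the name of the file. The members and lists were chosen with earlier results of these data known. The genes named are the members, a fixed set (H6pd, Tktl1, Tktl2, Me1, Idh2, G6pd2 and Tigar), up to 3 called genes with the smallest adjusted p of each other list with up to 1 going the other way, and the 3 most alike genes for 5 members. The analysis without HF-DR 8 and 9 was added after seeing the data.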

Additional observations from a re-analysis of the deposited data

How the results depend on the processing

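All 8 members were called higher in HF-DR than in HF-AL, and than in t0, under each of 14 alternatives to the limma analysis. Against HF-AL, Tkt ranged from 2.40 (without the 10 arrays with specks) to 2.87 (the deposited log2 table), Rpia from 1.66 to 1.98, Pgd from 1.21 to 1.54, Taldo1 from 1.13 to 1.51, G6pdx from 0.89 to 1.22, Pgls from 0.58 to 0.85, Idh1 from 0.45 to 0.71 and Rpe from 0.27 to 0.44. The mean of all Tkt probes, 1.86, is left out of that range because it includes the third probe, which was not well above background in t0 and HF-AL. The largest adjusted p was 0.0116 against HF-AL, for Idh1, and 0.0118 against t0, for Rpe. Within 1 slide the Rpe difference turned to -0.0376, from 1 array per group, with no test; the cause was not tested. In HF-AL against t0 no member was called in any alternative (smallest adjusted p 0.088), and 9 uncalled values changed sign. The number of genes called there moved most. It was 115 (77 higher, 38 lower), and 213 (94 and 119) with Feature Extraction's processed signals and 71 with no filter on dim probes. It was 197 without 7 arrays set aside for male tract transcripts, 764 with array weights and 305 with only 2 groups in the fit. The count was 85 (71 and 14) with normexp on all spots and 118 (52 and 66) in the deposited table. The cause of these moves was not tested. Among the 7 arrays set aside were HF-AL 5, 7 and 9. Their means of the male tract markers above, -5.33, -5.18 and -5.71, lay near the HF-AL median of -5.30. HF-DR 1, at -3.96, was not set aside. HF-DR against HF-AL gave 8701 (slide block) to 11536 genes. The replicate numbers of the labels did not pair the animals: over 36 same-numbered pairs the deviations from group means had a median r of 0.01, 11 pairs were over 0.1, and 3 of 36 arrays correlated best with their own number. A replicate block gave 10645, 126 and 10212 genes for HF-DR against HF-AL, HF-AL against t0 and HF-DR against t0, and changed no member's call. Of the 28 response pairs, 24 or 25 passed in each alternative. Within 1 group, correlations after removing slide means could not be fitted, since each array of a group lies on its own slide. Residuals from group and slide over the 27 arrays on shared slides, which do not include HF-DR 8 and 9, gave a median r of 0.17 over the 28 member pairs (13 residual degrees of freedom), against 0.37 for deviations from group means over 36 arrays and 0.16 without HF-DR 8 and 9; this was chosen after seeing the data. Among list genes, Srebf2 was called lower with its brightest probe and higher with the mean of its probes.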
